A study of Mus musculus with 24 samples.

Results

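Gm26917, Gm42418 and AY036118 are 3 noncoding genes that lie side by side on mouse chromosome 17, in a stretch that resembles the precursor of ribosomal RNA. They are 3 of the 55335 genes counted in a small RNA study of Huntington's disease cells, and 2 of the 3 had any count. They were picked by name through the GENCODE mouse release 21 annotation, with their shares of the counts by cell type, genotype and replicate already in view. Their levels are therefore given as a description, with no p-value. Where the fit over the whole table called or did not call one of them, this is stated beside the share of all genes called, and nothing is read from it in any comparison.

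The study compared mouse embryonic stem cells (mESC) with neural progenitor cells (NPC) derived from them, each in 6 Htt genotypes. Htt encodes huntingtin, and a long CAG repeat in it causes Huntington's disease. The genotypes were an Htt knockout (KO), wild type (WT) and 4 heterozygous knock-in lines with repeats of increasing length, called Q20, Q50, Q92 and Q111. Every one of the 12 groups had 2 libraries of total RNA read as single reads of 50 bases, which the design text calls biological samples without saying whether they were separate cultures.

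The mESC were kept with leukemia inhibitory factor on a layer of CF-1 feeder fibroblasts, and the NPC with FGF and EGF on laminin. Each genotype is 1 line, so a difference between genotypes cannot be told apart from a difference between lines. The titles give 92 repeats for the line called Q92, and the growth protocol gives 89. No treatment or age applies to these cells.

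Ribosomal RNA is made in the nucleolus by RNA polymerase I as 1 long precursor that holds, in order, the 5′ external transcribed spacer, 18S, the first internal spacer, 5.8S, the second internal spacer and 28S. The spacers are cut away and degraded, while 18S becomes the RNA of the small ribosomal subunit. Box C/D small nucleolar RNAs, named Snord in the mouse, pair with the precursor and guide its methylation or its cleavage. Growing stem cells make ribosomes at a high rate.

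The sequences below, from the GENCODE release 21 transcripts on GRCm38, show where the genes lie in the order of the precursor. CT010467.1 (ENSMUSG00000106106) is a row of rRNA biotype annotated on the minus strand, at chr17:39846353-39848827. The reverse complement of its 1849-base transcript begins with the conserved 5′ end of 18S, marked in capitals. The plus strand is therefore the 18S sense strand.
18S-like plus strand, chr17:39846353-39846452: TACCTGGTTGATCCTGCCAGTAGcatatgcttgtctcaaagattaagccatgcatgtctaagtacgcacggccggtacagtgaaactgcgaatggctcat
Gm26917 (ENSMUSG00000097971), a lincRNA of the plus strand at chr17:39843013-39846341, ends 11 bases before that first base, in the place of the 5′ external transcribed spacer. Its last bases are shown because they adjoin 18S.
Gm26917 plus strand, chr17:39846242-39846341: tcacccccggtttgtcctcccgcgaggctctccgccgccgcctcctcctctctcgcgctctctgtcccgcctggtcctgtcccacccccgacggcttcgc
Gm42418 (ENSMUSG00000098178), also a lincRNA of the plus strand, lies at chr17:39846958-39848788 and begins at base 606 of the 18S-like stretch. It runs through the end of 18S into the place of the first internal spacer. The stretch across that end is shown, with the last bases of 18S in capitals and the bases beyond them in lower case.
Gm42418 plus strand, chr17:39848152-39848251: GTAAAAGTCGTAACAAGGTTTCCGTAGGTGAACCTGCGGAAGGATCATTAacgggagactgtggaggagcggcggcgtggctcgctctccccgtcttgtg
AY036118 (ENSMUSG00000105361) is a lincRNA of the minus strand at chr17:39847113-39848035, antisense to 18S. Its first bases are set beside the same positions of Gm42418 to show that the genes are each other's complement there.
AY036118 minus strand, chr17:39847976-39848035: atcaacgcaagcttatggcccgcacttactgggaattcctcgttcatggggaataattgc
Gm42418 plus strand, chr17:39847976-39848035: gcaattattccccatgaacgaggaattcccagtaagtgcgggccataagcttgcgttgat

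The longest transcript of Gm26917 has 3329 bases and covers the whole gene. Its GC content was 69.1%, above the 95th percentile of 60.8% over 87696 transcripts of genes with a count, whose median was 50.8%. Gm42418 has 1831 bases at 60.2% GC, in which the 1244 bases shared with 18S had 55.1% and the 587 bases beyond had 71.0%. AY036118 has 923 bases at 54.4% GC. The GC-rich stretches are those in the place of spacers.

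The genes overlap on opposite strands and on the same strand. All 923 bases of AY036118 lie within Gm42418 on the other strand and within CT010467.1 on its own strand, which leaves 0 bases of its own. Likewise 1822 of the 1831 bases of Gm42418 are shared with CT010467.1. Gm26917 shares no exon base with the other genes of the locus. The first 605 bases of the 18S-like stretch lie under no exon of the plus strand, so reads from that end of 18S would not be counted on Gm42418. Among annotated transcripts, no gene outside the locus shared a run of 30 bases with any of the 3 genes. Copies of the ribosomal RNA genes outside annotated transcripts were not searched. Whether the counted reads came from this locus or from such copies cannot be told here. The RefSeq table for GRCm38.p6 lists Gm42418 as a synonym of Rn18s-rs5, a pseudogene of 1849 bases. That table was used only for names.

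**Figure D1:**
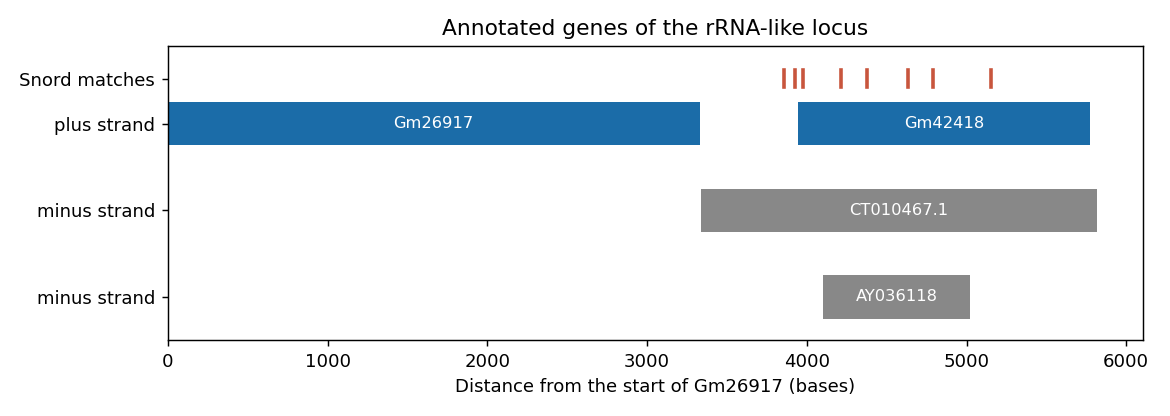
Annotated genes of the rRNA-like locus, drawn to scale by distance in bases from the start of Gm26917, with genes of the plus strand in blue, genes of the minus strand in grey, and 8 short red marks where a Snord gene is complementary to the 18S-like strand. Gm26917 ends just before CT010467.1 begins, and Gm42418, AY036118 and CT010467.1 lie over one another.

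Library totals ran from 642384 to 2360434 counts in mESC and from 342022 to 682113 in NPC, so a share of counts is a share of all counted reads in that library. Genes of snoRNA or scaRNA biotype took 60.6% to 70.6% of the counts in mESC and 42.4% to 62.7% in NPC. The Y RNA Rny1 took 0.644% to 1.65% in mESC and 12.97% to 40.3% in NPC, and counts on 1 gene lower the shares of all others in that library. The microRNAs and genes of the mESC marker list summed to 752 to 2457 CPM (counts scaled to a library total of 1e6) in mESC. In NPC they summed to 0 to 2.20 CPM in the 10 libraries outside Q20 and to 367 and 370 CPM in the Q20 libraries, where 6 of 10 markers had a count. Most of these counts were on 2 microRNAs, with 262 on Mir302b and 107 on Mir293 over all NPC libraries. Mir295 had 3, and Mir291a, Mir290a and Pou5f1 had 2 each. Nanog, Zfp42, Dppa5a and Mir294 had 0. The NPC list summed to 2.19 to 11.4 CPM in mESC and 151 to 698 CPM in NPC, the lowest in Q20. Of its 13 rows 11 had a count. Over all libraries of a cell type, Mir181a-1 had 3 counts in mESC and 1138 in NPC, and Pax6 had 7 and 10. Mir124a-3 went the other way, with 6 and 2. The remaining rows with a count had more counts in NPC. Feeder markers summed to at most 5.84 CPM in mESC and 10.6 CPM in NPC, all from few counts. Over all libraries of a cell type, Mir143 and Mir145a had 14 and 12 counts in mESC and 3 and 2 in NPC. Thy1 had 1 and 0. Col1a1, Col1a2 and Col3a1 went the other way, with 0 in mESC and 3, 2 and 7 in NPC. Htt had 1 to 3 counts in the KO libraries and 2 to 9 in WT, too few to check the knockout. In such bulk samples, fewer cells of a type and less RNA per cell cannot be told apart.

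Gm26917, in the place of the 5′ spacer, was among the most counted genes of the table. Its share was higher in every mESC library than in any NPC library. The edge was narrow, as the lowest mESC library (WT replicate 1) had 1.07 times the share of the highest NPC library (Q111 replicate 2). Under other denominators or scalings the lowest mESC value was 1.05 to 1.42 times the highest NPC value. The share of all genes without such overlap is not given here. Differences between the cell types were common in the table, where edgeR called 58.4% of the 904 genes tested at an adjusted p under 0.05. In mESC Gm26917 took 12.3% and 19.5% of the counts in the KO libraries (replicates 1 and 2) and 11.1% and 19.01% in WT. The shares were 17.95% and 17.4% in Q20 and 12.2% and 23.9% in Q50. The Q92 libraries had 21.96% and 22.5% and the Q111 libraries 20.1% and 22.3%. The low libraries were replicate 1 of KO, WT and Q50, and the other 9 lay at 17.4% or above. In NPC the shares were 5.70% and 9.06% in KO, 5.64% and 9.90% in WT, 5.55% and 6.09% in Q20 and 5.42% and 5.48% in Q50. Those of Q92 had 8.36% and 8.20% and those of Q111 10.2% and 10.4%. The Q111 libraries were the highest of the NPC, and both Q50 libraries were the lowest.

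The median share of Gm26917 was 19.3% in mESC and 7.15% in NPC (12 libraries each). It ranked first or second of all genes in mESC and from 2 to 4 in NPC. By genotype, the mean in mESC was from 1.94 times (WT) to 3.31 times (Q50) the mean in NPC, with no overlap in any genotype. Within replicate 1 the fold was 1.96 (Q111) to 3.24 (Q20), and within replicate 2 it was 1.92 (WT) to 4.36 (Q50). The 95% Wilson interval of a share was at most 0.104 percentage points to either side. These intervals cover counting error only and are far narrower than the gaps between replicates of KO or WT.

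Gm42418, which holds the 3′ part of 18S and the start of the next spacer, went the other way. Its mESC shares were 0.356% and 1.32% in KO, 0.402% and 1.51% in WT, 0.411% and 0.428% in Q20 and 0.536% and 1.86% in Q50. The Q92 libraries had 0.322% and 0.931% and the Q111 libraries 0.392% and 1.62%. In 5 of the 6 genotypes replicate 2 was far above replicate 1, and Q20 was the exception. In NPC the shares were 2.46% and 2.49% in KO, 2.35% and 2.06% in WT, 3.35% and 3.59% in Q20 and 2.85% and 2.26% in Q50. Those of Q92 had 3.58% and 3.27% and those of Q111 2.54% and 2.56%. All 12 NPC libraries lay above all 12 mESC libraries, with medians of 2.55% and 0.482%. The share of all genes without such overlap is not given here. Depth also differed between the cell types. NPC totals were at most 682113, and of the mESC libraries only Q50 replicate 2, at 642384, was below that. The part of depth in the cell type difference of either gene was not tested.

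For Gm42418 the gap between the cell types was narrow at its edge. The lowest NPC library (WT replicate 2) had 1.11 times the share of the highest mESC library (Q50 replicate 2). With the counts outside the 3 genes as the denominator the lowest NPC value was 0.933 times the highest mESC value, and with the counts outside snoRNA biotypes it was 0.830 times, so the cell types overlapped. They did not overlap with TMM or DESeq2 scaling. By genotype, the mean share in NPC was from 2.13 times (Q50) to 8.28 times (Q20) that in mESC. This order rested on the mESC replicate 2 libraries. With replicate 1 of both cell types alone the fold was 5.32 (Q50) to 11.1 (Q92), with Q20 at 8.15, and with replicate 2 alone it was 1.21 (Q50) to 8.39 (Q20). Q20 had the lowest mean in mESC because its replicate 2 was not high, and among the replicate 1 libraries its share was the second highest. The Q20 NPC libraries are also those with counts on mESC markers, mostly Mir302b and Mir293. Whether this bears on the Q20 values was not tested.

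**Figure D2:**
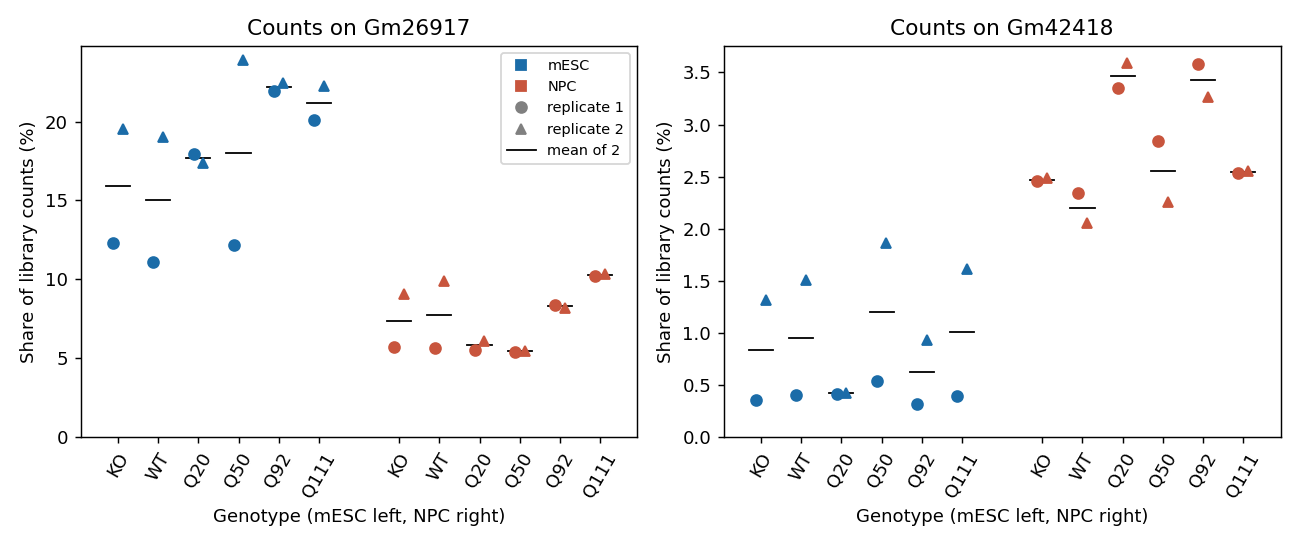
Share of each library's counts, in percent, on Gm26917 (left) and Gm42418 (right) for 6 genotypes in mESC (blue) and NPC (red), with circles for replicate 1, triangles for replicate 2 and black lines for the mean of 2. The mESC libraries sit above all NPC libraries for Gm26917 and below them for Gm42418.

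AY036118, the antisense gene, had 0 counts in all 24 libraries. CT010467.1, which covers it on the same strand, had 1 count in all libraries together. How reads under both genes were counted is not given in the sources used here, so the count of 0 sets no upper limit on the level of AY036118. Gm42418 had 280863 counts over nearly the same bases, and the strand setting of the counting is not given in the sources used here.

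Per kilobase of exon, the level of Gm26917 had a median of 57876 CPM in mESC and 21463 CPM in NPC. Gm42418 had medians of 2631 and 13910 CPM per kilobase. Per kilobase Gm26917 was above Gm42418 in all 12 mESC libraries and in the 10 NPC libraries outside Q20. In the Q20 NPC libraries Gm42418 was the higher, with 18300 against 16661 CPM per kilobase in replicate 1 and 19615 against 18298 in replicate 2.

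The ratio of the pair within a library needs no scaling of the libraries, although it is made of the same counts that led to the choice of these genes. For 100 counts on Gm26917, the mESC libraries had 1.47 (Q92 replicate 1) to 7.93 (WT replicate 2) counts on Gm42418, with a median of 3.88. The NPC libraries had 20.8 (WT replicate 2) to 60.4 (Q20 replicate 1), with a median of 41.4. The cell types did not overlap in this ratio. Within NPC, both Q20 libraries were at the top, with 60.4 and 59.0, while both Q111 libraries had 24.8 and 24.7. Summed, the genes took 11.5% to 25.7% of the counts in mESC and 7.74% to 12.9% in NPC.

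**Figure D3:**
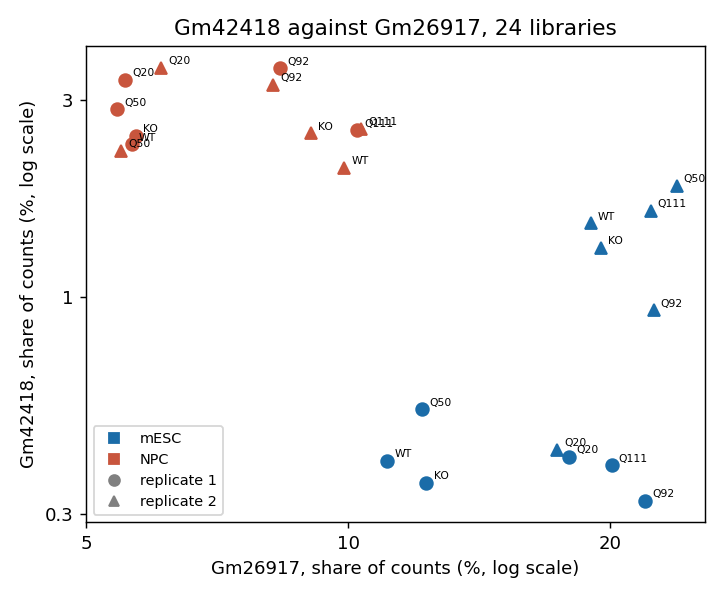
Share of counts on Gm42418 against share on Gm26917, both in percent on log scales, for each of the 24 libraries (mESC blue, NPC red, circles replicate 1, triangles replicate 2, genotype printed beside each point). The NPC libraries lie at the upper left, and in mESC 5 replicate 2 libraries lie above the replicate 1 libraries, with both Q20 libraries beside the latter.

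Libraries of 1 genotype also differed from each other. In mESC, Gm42418 was 2.89 to 4.12 times as high in replicate 2 as in replicate 1 in the 5 genotypes other than Q20, and 1.04 times in Q20. The same 5 replicate 1 libraries had 2.05 to 3.33 times the total count of their replicate 2 partners, and Q20 had 0.945 times, so depth moved with the share. The raw counts of Gm42418 spanned 6883 to 11441 in replicate 1 and 8133 to 18581 in replicate 2. The part of depth in the difference was not tested, and the labels name no batch. In NPC the ratio of replicate 2 to replicate 1 was 0.794 to 1.07.

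For Gm26917 the replicate gap followed other lines. In mESC, replicate 2 was 1.59 times replicate 1 in KO, 1.71 times in WT and 1.96 times in Q50, and 0.968 to 1.11 times in the other genotypes. In NPC it was 1.59 times in KO and 1.76 times in WT, and 0.981 to 1.10 times in the 4 knock-in lines. KO and WT were thus the genotypes whose replicates stood apart in both cell types. Over the libraries of replicate 1 alone, the log2 change from mESC to NPC was -1.81 for Gm26917 and 2.23 for Gm42418. Over replicate 2 alone it was -1.60 and 0.97, so both directions were the same on each side.

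Fitted with edgeR over all 24 libraries with TMM scaling, the log2 change in NPC against mESC was -1.64 ± 0.12 (SE) for Gm26917 and 1.51 ± 0.23 for Gm42418. Both of the 2 genes with counts were among the 58.4% of tested genes that were called. Since the choice of these genes used that contrast, nothing is read from the count. Of all genes tested, 30.4% were called higher in NPC and 28% lower, which is 275 and 253 genes. With library totals in place of TMM the split was 350 and 159 genes, and the median change of all genes moved from -0.02 to 0.32. Gm26917 was then at -1.31 and Gm42418 at 1.78, so each kept its direction.

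The KO and WT libraries of mESC overlapped in their shares of both genes. The log2 change in KO against WT was 0.08 ± 0.38 (SE) for Gm26917 and -0.18 ± 0.67 for Gm42418, with 2 libraries per group. Neither was called, and edgeR called 0 of 1766 genes (0% of those tested). Before adjustment, 18 genes had p under 0.05, and DESeq2 also called 0. The direction rested on single libraries. Gm42418 was at -1.17 without KO replicate 2, -0.81 without WT replicate 1, 0.35 without KO replicate 1 and 0.76 without WT replicate 2. Gm26917 was at -0.11 without KO replicate 2, -0.16 without WT replicate 1, 0.20 without KO replicate 1 and 0.28 without WT replicate 2.

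In NPC, the KO against WT change was -0.27 ± 0.19 for Gm26917 and -0.04 ± 0.11 for Gm42418. Neither was called, beside 6 of 441 genes (1.36%) in the whole table, of which 1.13% of those tested were lower in KO and 0.227% higher. Gm26917 was at -0.62 without KO replicate 2 and -0.57 without WT replicate 1. It was at 0.02 without KO replicate 1 and 0.094 without WT replicate 2. By share, the KO and WT libraries of Gm26917 overlapped in NPC. For Gm42418 both KO libraries (2.46% and 2.49%) lay above both WT libraries (2.35% and 2.06%), and with library totals its log2 change was 0.17. The share of all genes whose KO and WT libraries separate in this way is not given here.

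Across the 4 knock-in lines of NPC, Gm26917 was lowest in Q50 and Q20 and highest in Q111. Ordered by mean share over all 6 genotypes, it went Q50, Q20, KO, WT, Q92, Q111, at 5.45%, 5.82%, 7.38%, 7.77%, 8.28% and 10.3%. Of the neighbours in that order, Q50 with Q20 and Q92 with Q111 did not overlap, and the other pairs did. How common such separation of 2 libraries from 2 is among all genes is not given here. The fitted slope was 0.0953 ± 0.0170 log2 units per 10 CAG repeats, or 0.87 over the range from 20 to 111 repeats (8 libraries of 4 lines). The fit took the 2 libraries of a line as separate points, so its SE does not rest on 8 independent repeat lengths. The line means did not rise throughout, as Q50 was below Q20. Gm26917 was the 1 of the 2 counted genes that passed the threshold, beside 6.45% of the 403 genes tested (2.73% rising with repeat number and 3.72% falling). Since genotype was used in the choice, nothing is read from that. Without the Q20 group, whose NPC libraries had counts on the mESC markers Mir302b and Mir293, the slope was 0.117.

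Gm42418 in NPC had the order WT, KO, Q111, Q50, Q92, Q20, from 2.20% to 3.47%. Q111 with Q50 and Q92 with Q20 overlapped, and the other neighbours did not. With 2 libraries a group, the share of all genes that separate in this way is not given here. Its slope over the knock-in lines was -0.0255 ± 0.0115 per 10 repeats and was not called. The value without the Q20 group was -0.0153, and without Q20 replicate 2 alone it was -0.0144.

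In mESC the genotype order of Gm26917 was WT, KO, Q20, Q50, Q111, Q92, with means from 15.1% to 22.2%, and every pair of neighbours overlapped. For Gm42418 it was Q20, Q92, KO, WT, Q111, Q50, from 0.419% to 1.20%, again with every pair of neighbours overlapping. Slopes were 0.0222 ± 0.0463 and 0.0388 ± 0.0663 per 10 repeats. Neither gene was called, and edgeR called 0 of 1487 genes (0%), while 48 had p under 0.05 before adjustment and DESeq2 called 0. Without the Q20 group the slope of Gm42418 was -0.0488, which turned its direction, and that of Gm26917 was 0.0993.

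Other rRNA rows did not move as 1 group between the cell types. Of 358 such rows, 73 had a count and 11 were tested in NPC against mESC, of which 4 were higher, 3 lower and 4 not called, with a median log2 change of 0.04 against -0.02 over all 904 genes, of which 58.4% were called, 30.4% higher and 28% lower. With wild-type libraries alone 2 of these rows were called. The mitochondrial ribosomal RNAs rose, mt-Rnr1 by 2.10 ± 0.15 (adjusted p = 4.8e-11) and mt-Rnr2 by 1.95 ± 0.15 (adjusted p = 2.02e-10). They are transcribed inside mitochondria and are no part of the nuclear precursor. The nuclear 5.8S copy n-R5-8s1, the RNA that follows the first internal spacer, was lower, at -1.46 ± 0.19 (adjusted p = 8.37e-07). With wild-type libraries alone its change was -1.14 and was not called.

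Lars2, which encodes the mitochondrial leucyl-tRNA synthetase, and the antisense row Gm15564 are in the same list by name. Lars2 was higher in NPC by 0.61 ± 0.21 (adjusted p = 0.016). Its call was lost without the Q20 groups (0.38), without a filter on low counts (0.07) and with wild-type libraries alone (0.18). The remaining called rows were Gm15564 at 0.57, n-R5s195 at -0.58 and n-R5s115 at -1.23, named after their values were seen. The n-R5s rows are near-identical copies of the 5S gene, so counts between them are uncertain. Leaving out single libraries gave 5 to 8 called rows.

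The listed RNAs that act on the precursor and had counts were lower in NPC. Of 14 listed, 4 had counts and all of these 4 were tested and called lower, with a median of -1.20, beside 28% of all genes tested called lower. They were Snord13 (U13, which pairs with the end of 18S) at -1.95 ± 0.15 (adjusted p = 2.06e-10), Snora73a and Snora73b (both U17, an H/ACA RNA of the 18S pathway) at -1.61 ± 0.27 and -0.79 ± 0.23, and Snord118 (U8, required for 5.8S and 28S) at -0.56 ± 0.18. With library totals the calls of Snora73b (-0.49) and Snord118 (-0.20) were lost, which left 2 of the 4. With wild-type libraries alone 1 of the 4 was called, Snora73b was at -0.88 and not called, Snord118 stood at 0.26 and Snora73a was not tested. Without NPC Q50 replicate 1, Snora73a was at -2.50. Snora73a had only 0 to 9 counts in an NPC library.

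Few mRNAs of ribosome making had enough counts in these small RNA libraries. Of 30 nucleolar proteins 5 were tested and 4 were lower in NPC, with a median of -1.21, beside 28% of all genes tested. Ncl, nucleolin, was at -1.47 ± 0.17 (adjusted p = 1.08e-07), Npm1, nucleophosmin, at -1.21 ± 0.19, and Nop58, a core protein of box C/D particles, at -2.13 ± 0.35. The fourth was the helicase gene Ddx21 at -1.03, named after its value was seen, whose call was lost with library totals. Nop58 had 0 to 5 counts in an NPC library, at most 9.22 CPM, against up to 42.0 CPM in mESC. Nop58 thus passed the filter through mESC, which nearly fixed its direction, so nothing is read from its call. Ddx21 had 0 to 7 counts in an NPC library, at most 15.9 CPM, against up to 19.5 CPM in mESC. Gnl3, nucleostemin, was at -0.67 ± 0.34 (adjusted p = 0.0922). It was called without any one of NPC WT replicate 2, NPC Q20 replicate 2 and the mESC replicate 1 libraries of KO, Q92 and Q111, at -0.78 to -0.88. It was also called with no filter (-1.22). With wild-type libraries alone 1 of the list was called, and Npm1, at -1.42, was not.

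Of 20 genes of RNA polymerase I transcription 2 were tested. Ubtf, the factor that binds the rDNA promoter, was lower in NPC at -1.43 ± 0.44 (adjusted p = 0.00839). With library totals it was at -1.18 and no longer called, and without NPC Q50 replicate 1 it was at -2.17. Ubtf had only 0 to 6 counts in an NPC library. Taf1d, a subunit of the promoter selectivity factor, was at -1.01 ± 0.49 (adjusted p = 0.0809). It was called without the mESC replicate 1 library of KO, WT, Q50 or Q92, at -1.16 to -1.22, with the DESeq2 Wald test (-1.07) and with no filter (-1.51). Ubtf was not tested with wild-type libraries alone. These reads come from a small RNA library, in which counts on an mRNA need not follow its full-length level. In KO against WT and in the CAG slopes, none of the genes tested from these 4 lists was called by edgeR, which covers 34 genes for KO against WT in mESC, 15 for KO against WT in NPC, 32 for the mESC slope and 15 for the NPC slope. DESeq2 also called 0 in each, and 1 gene in each had p under 0.05 before adjustment by edgeR.

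**Figure D4:**
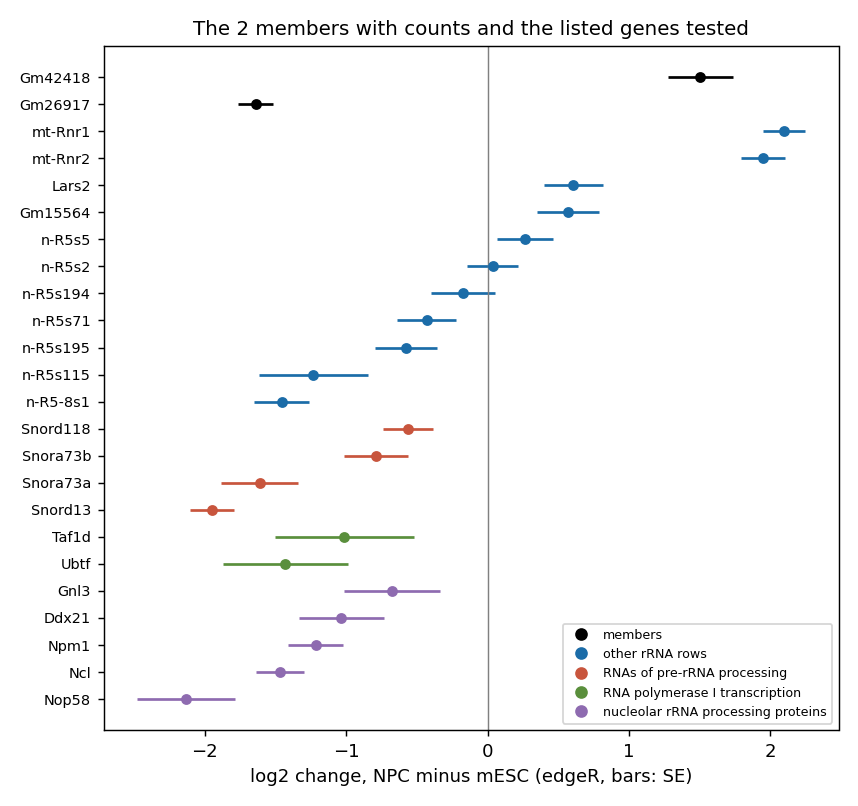
Log2 change in NPC minus mESC from edgeR, with bars for an SE derived from the F of the test. Gm42418 and Gm26917 are in black. The genes tested from 4 lists are other rRNA rows (blue), RNAs of precursor processing (red), RNA polymerase I transcription (green) and nucleolar proteins (purple). Gm42418 lies near the mitochondrial rRNA rows, and Gm26917 lies among the processing RNAs and nucleolar genes.

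Complementarity between the Snord RNAs of these libraries and the locus followed the 18S-like strand. Of 46 Snord genes with a count, 8 (17.4%) held a run of at least 12 bases complementary to the 18S-like plus strand, against 1 (2.17%, Snord116l9, with 1 count in all) for the opposite strand. For Gm26917 the number was 0 on either strand. The longest runs are printed as they read in the 18S-like strand, with all their bases complementary to the guide.
Snord13 match, from base 1806: GTCGTAACAAGGTTT
Snord65 match, from base 631: CGGTAATTCCAGCT
Both lie within Gm42418, and the Snord13 run is in the stretch printed across the end of 18S. Such runs are a description and not proof of a guide site.

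The 8 matched Snord RNAs did not move together. In NPC against mESC, 5 were called lower, 1 higher and 2 were not called, with a median of -0.60, beside 28% of all genes tested called lower and 30.4% higher. Besides Snord13, the lower ones were Snord93 at -1.09 ± 0.13, Snord110 at -0.91 ± 0.11, Snord70 at -0.83 ± 0.12 and Snord65 at -0.36 ± 0.09. Snord61 rose by 1.28 ± 0.15 (adjusted p = 2.03e-07). Snord59a was at -0.21 ± 0.10 (adjusted p = 0.081) and Snord98 at -0.05 ± 0.17 (adjusted p = 0.812). They were picked by sequence and not by these values.

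Scaling and single libraries touched some of these calls. With library totals Snord65 was at -0.02 and not called. With wild-type libraries alone Snord65 was at 0.029, and the calls of Snord93 (-1.07), Snord110 (-0.71) and Snord70 (-0.31) were lost. Snord59a was called, at -0.24 to -0.36, without NPC KO replicate 2, mESC Q92 replicate 1 or the mESC replicate 2 library of KO, Q50 or Q111. It was also called without the Q20 groups (-0.35), without the 3 rRNA-like genes in the table (-0.27) and with no filter (-0.79), and it was at 0.14 with library totals, not called. Snord98 was called with no filter (-0.66), and was at 0.32 with library totals and 0.52 with wild-type libraries alone, not called.

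Across libraries, the gene most like Gm26917 was the microRNA row Mir5099, by the mean of Pearson's r over the 12 mESC and the 12 NPC libraries (0.87 and 0.95). The histone genes Hist1h2bh (0.67 and 0.93), Hist4h4 (0.59 and 0.93) and Hist2h3c2 (0.75 and 0.77) followed. Gm42418 was at rank 297 of 904 genes in this order (0.53 and -0.17). The genes most like Gm42418 were Lars2 (0.92 and 0.71), Snord17 (0.86 and 0.74), Hsp90ab1 (0.74 and 0.83) and Hist1h2be (0.73 and 0.80). These values are of log2(CPM + 1), and the libraries share genotype, depth and, in mESC, the replicate difference described above. The longest run shared with the locus was 10 bases for Mir5099 and 13 bases for Lars2.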

How the data were processed

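Small RNA was sequenced in 24 libraries. The authors deposited whole-number counts per gene, not normalized, in 1 table of Ensembl identifiers. The submitters' processing notes name CASAVA 1.8, STAR, HTSeq and the build GRCm38.p6. The annotation release, the strand setting and the handling of overlapping or repeated genes are not given in the sources used here, and all of these bear on counts at an rRNA-like locus. Columns named Q89 were assigned to the samples titled Q92, since the growth protocol gives 89 repeats for that line.

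Identifiers were matched to GENCODE release 21, with 55154 of 55335 found and 57 counts on the rest. A share is a gene's count over the library total. Fits used edgeR 4.0.16 in R 4.3.3 (glmQLFit, glmQLFTest, TMM, filterByExpr at min.count 10 and min.total.count 15), with Benjamini-Hochberg adjustment over all genes tested and calls at 0.05. NPC against mESC was the mean of 6 groups minus the mean of 6 groups over 24 libraries, KO against WT used the 12 libraries of a cell type, and slopes used its 8 knock-in libraries. edgeR gives no SE of a log2 change in this test. The SE printed here is the size of the change divided by the square root of the quasi-likelihood F. P-values measure the spread between these libraries, which may be technical. The fits were first run on simulated counts with 1 spread for all genes and no replicate difference. That run does not cover the replicate gaps of these libraries. Alternatives were DESeq2 1.42.0 (size factors and Wald test), library totals, no filter, a replicate block, single libraries or groups left out, wild-type libraries alone, 89 repeats for Q92 and other denominators of the share. The replicate 1 and replicate 2 libraries alone were added after seeing the data.

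The 3 genes and the lists were chosen with earlier results of these data known. From each list the 4 genes with most counts are named, and others only as marked. The 4 genes most like Gm26917 and the 4 most like Gm42418 were taken by the mean of r in both cell types. Replicates in all 12 groups differed beyond counting noise. No genome sequence was used.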

Additional observations from a re-analysis of the deposited data

Results flagged for a closer look

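Gm42418 in Q50 against Q20 went in opposite directions in the cell types. In mESC the log2 ratio of the mean shares was 1.51, and both Q50 libraries lay above both Q20 libraries. Without Q50 replicate 2 it was 0.35. In NPC it was -0.44, and both Q50 libraries lay below both Q20 libraries, with -0.29 without Q50 replicate 2. By mean share, Q20 was the lowest of the genotypes in mESC (0.419%) and the highest in NPC (3.47%). Each other genotype therefore also went in opposite directions against Q20. Q50 had the highest mean in mESC (1.20%). The difference between the cell types was not tested, and the share of all genes that separate in this way is not given here. The Q20 libraries of NPC had counts on the mESC markers Mir302b and Mir293. Those of mESC lacked the gap in depth between replicates that the other genotypes had.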

How the results depend on the processing

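In NPC against mESC the number of genes called was 2024 with no filter and 123 with wild-type libraries alone, and Gm26917 was at -2.20 and -1.04. Leaving out 1 library gave 493 to 537 genes, -1.73 to -1.56 for Gm26917 and 1.35 to 1.69 for Gm42418. Snord118 (0.26) and Snord65 (0.029) turned direction with wild-type libraries alone. For 21 named genes, 631 of 669 alternative values kept the call, and 623 of these also the direction. The 8 others were of Snord59a and Snord98, which were not called. By share, the log2 ratio of means stayed within -1.64 to -1.25 for Gm26917 and 1.37 to 1.89 for Gm42418 under other denominators and with 1 library left out.

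In KO against WT in NPC, calls were 10 with DESeq2 size factors, 1 with library totals, 0 with no filter and 24 with the Wald test, against 6. They ran from 0 (without KO replicate 1) to 21 (without WT replicate 2). Gm26917 was at -0.59 with no filter and -0.62 to 0.094 with a library left out. Gm42418 was at 0.17 with library totals, -0.45 with no filter and -0.21 to 0.12 with a library left out.

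The mESC slope had 2 calls with no filter and 0 to 2 with a library left out (2 without Q111 replicate 1), and Gm26917 was at 0.0993 without Q20. The NPC slope had 26 calls, 50 with no filter, 11 with the Wald test, 15 without the Q20 group and 6 (without Q20 replicate 1) to 26 with a library left out. It had 9 without Q20 replicate 2, 16 and 14 without Q92 replicate 1 and 2, and 11 and 15 without Q111 replicate 1 and 2. Gm26917 was at 0.0737 with no filter, 0.117 without Q20 and 0.0836 to 0.111 with a library left out, and Gm42418 at -0.0474 with no filter. The cause of these changes was not tested.

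Replicate numbers were not taken as pairing in the main fits, although 10 of 15 pairs of mESC groups and 4 of 15 in NPC had correlated deviations above 0.1. The highest correlation was 0.50 in mESC and 0.39 in NPC. The main fits therefore do not account for a difference that replicates of the same number share. With the replicate number as a block, NPC against mESC had 553 calls, Gm26917 at -1.65 and Gm42418 at 1.64. The slopes had 3 calls in mESC and 9 in NPC. Gnl3 (-0.69) and Taf1d (-0.86) were called with the block. Fewer genes passed the filter in NPC (441 for KO against WT, 403 for the slope) than in mESC (1766 and 1487), where most libraries were deeper.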
